A study of Bos taurus with 6 samples.

Results

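SFRP1 (ENSBTAG00000027625), FRZB (ENSBTAG00000010977) and GREM1 (ENSBTAG00000046604) encode secreted antagonists of Wnt and BMP signals and are 3 of the 24579 genes counted in mammary biopsies of Holstein heifers at day 21 of the first lactation. The in utero heat stressed heifers (IUHT-H, heifers 9196, 9203 and 9204) were carried by dams with shade as their sole heat abatement in the last 6 to 7 weeks of gestation. The in utero cooled heifers (IUCL-H, heifers 9202, 9214 and 9223) were carried by dams that had fans and water soakers as well as shade. All heifers were kept under the same conditions from birth, each gave 1 library of total RNA from bulk tissue, and a further IUCL-H described in the methods was not analysed here. The 3 genes were chosen by their role and by their difference between IUHT-H and IUCL-H in these same libraries, so the levels and fold changes that follow are a description of that difference, given without a test.

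Wnt proteins signal by binding Frizzled receptors together with the co-receptors LRP5 and LRP6. SFRP1, secreted frizzled-related protein, and FRZB, also known as secreted frizzled-related protein 3, carry a cysteine-rich domain like that of the receptors and bind Wnt proteins outside the cell. GREM1, or gremlin, belongs to the cystine-knot proteins that bind bone morphogenetic proteins (BMPs) and keep them from their receptors. Wnt and BMP signals take part in the formation of the mammary bud, in the branching of ducts and in the exchange between the epithelium and the stroma around it. In the mammary gland the antagonists are typically products of stromal and basal epithelial cells, whereas the secretory cells fill the RNA of a lactating gland with the messages of the milk proteins.

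The IUHT-H libraries held 75754791 to 84969285 counts and the IUCL-H libraries 91696849 to 101361294. From 64.7% to 74.7% of a library fell on the 10 genes with the most counts summed over all heifers, which left 21495306 to 29741526 counts for the others. Levels are given in CPM (counts scaled to a common library size) normalized by the TMM method of edgeR, on which 3 counts, the limit set by a count of 0, correspond to between 0.0298 and 0.0435 CPM. The deposited files pair no identifier with a name, so gene names came from the study. Of the 134 other Wnt and BMP genes and the 49 cell type markers listed for the comparison, 1 of each could be found, and the labelled tissue was therefore not checked against markers of secretory, basal or stromal cells. In bulk tissue, fewer cells of a type and less RNA per cell cannot be told apart. In the RefSeq annotation of another bovine assembly (ARS-UCD2.0) the span of each of the 3 genes overlapped 0 other genes. Their nearest protein-coding neighbours there were ZMAT4 and GOLGA7 for SFRP1, NCKAP1 and DNAJC10 for FRZB, and FMN1 and SCG5 for GREM1. None of these 6 neighbours could be matched to an identifier in the files.

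SFRP1 was 2.67-fold higher in IUHT-H and was the one of the 3 genes with many reads. IUHT-H 9196, 9203 and 9204 had 31.3, 35.1 and 15.5 CPM, from 2820, 3293 and 1069 counts. IUCL-H 9202, 9214 and 9223 had 15.1, 7.10 and 8.45 CPM, from 1518, 641 and 741 counts. Heifers 9196 and 9203 stood well above the rest, while IUHT-H 9204 and IUCL-H 9202 had nearly the same level, the lower of the IUHT-H being 1.03 times the higher of the IUCL-H. IUHT-H averaged 27.3 ± 10.4 CPM and IUCL-H 10.2 ± 4.28 CPM (SD, 3 heifers each). On the log2 scale the difference was 1.42, with a standard error of 0.36. Within a group the highest heifer had 2.26 times the level of the lowest in IUHT-H and 2.13 times in IUCL-H, nearly as much as the difference between the groups. The separation of the groups depended on the scaling. With CPM by library size alone, IUHT-H 9204 had 12.6 CPM and IUCL-H 9202 16.6 CPM, so that the groups overlapped, and they also overlapped when counts were scaled to those outside the 10 genes with the most counts (49.8 and 51.1 CPM).

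FRZB was near the limit of detection, with at most 29 reads in a heifer. IUHT-H 9196, 9203 and 9204 had 29, 12 and 12 counts, or 0.322, 0.128 and 0.174 CPM. IUCL-H 9202, 9214 and 9223 had 8, 2 and 1 counts, or 0.0795, 0.0222 and 0.0114 CPM. The groups did not overlap, but the exact 95% Poisson interval of the 12 counts reached down to 6.20 and that of the 8 counts in IUCL-H 9202 up to 15.8, so that the intervals overlap. In IUCL-H 9214 and 9223 the gene was below the level of 3 counts. Mean levels were 0.208 ± 0.101 CPM for IUHT-H against 0.0377 ± 0.0366 CPM for IUCL-H (SD, 3 heifers each), a log2 difference of 2.38 with a standard error of 0.70. Summed over the heifers, 53 counts in IUHT-H and 11 in IUCL-H gave a ratio of 5.31 per scaled library, with a 95% interval of 2.74 to 11.3 that covers counting error only. The filter on low counts asks for about 0.113 CPM in 3 heifers, which 3 IUHT-H and 0 IUCL-H reached, so FRZB was tested at all only because it was higher in IUHT-H. Heifer 9202 had the most influence on this gene. Without it the log2 fold change was 3.52 (standard error 0.78), and the count in each of the 2 IUCL-H that remain was under 3.

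GREM1 was 2.34-fold higher in IUHT-H and the least variable of the 3 genes within a group. IUHT-H 9196, 9203 and 9204 had 124, 103 and 61 counts, or 1.38, 1.10 and 0.884 CPM. IUCL-H 9202, 9214 and 9223 had 45, 43 and 45 counts, or 0.447, 0.476 and 0.513 CPM. The IUCL-H lay close together, the highest being 1.15 times the lowest, and the lowest IUHT-H had 1.72 times the level of the highest IUCL-H. The IUHT-H mean was 1.12 ± 0.247 CPM and the IUCL-H mean 0.479 ± 0.0329 CPM (SD, 3 heifers each). The log2 fold change was 1.23 and its standard error 0.28. The exact Poisson interval of the 61 counts in IUHT-H 9204 was 46.7 to 78.4, and that of 45 counts was 32.8 to 60.2. The IUCL-H counts thus lay closer together than counting error can resolve. In contrast to SFRP1, the groups were separate under each of the 4 scalings tried for these genes, as they were for FRZB.

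**Figure D1:**
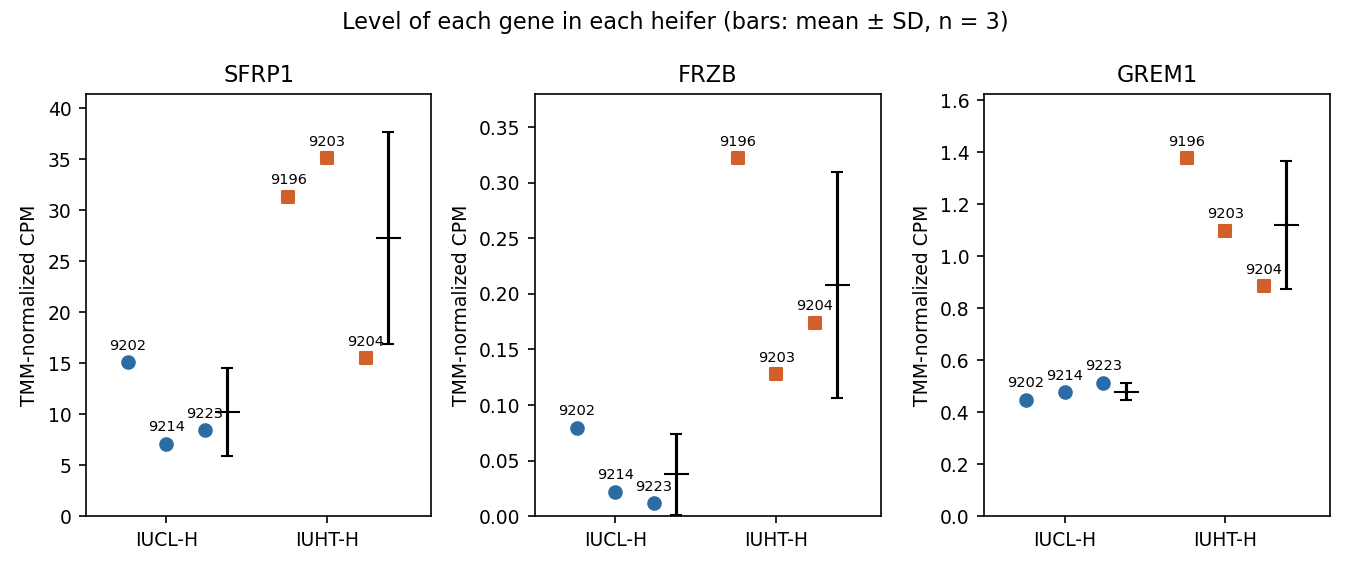
TMM-normalized CPM (vertical axes, linear and starting at 0) of SFRP1, FRZB and GREM1 in each heifer, with IUCL-H as blue circles, IUHT-H as orange squares and the mean ± SD of 3 heifers as black bars. The closest heifers of the 2 groups are IUHT-H 9204 and IUCL-H 9202 at 15.5 and 15.1 CPM of SFRP1, whereas the 3 IUCL-H values of GREM1 lie between 0.447 and 0.513 CPM.

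In all 3 genes each IUHT-H value was above each IUCL-H value on the TMM scale. This was so for 3.14% of the 14724 genes tested, and nothing can be read from the count of 3, because the genes were chosen for this difference. Transcript lengths of the build of the files were not used here, so the levels of the 3 genes are not compared with each other as amounts of RNA. By its own CPM, SFRP1 lay above 75.8% of the genes tested, GREM1 above 17.0% and FRZB above 1.04%. An increase larger than that of the gene was found in 75 genes for SFRP1 (0.509% of those tested), in 17 for FRZB (0.115%) and in 114 for GREM1 (0.774%). These ranks too are on the difference for which the genes were chosen, and that of FRZB rests on at most 8 counts in any IUCL-H.

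The spread between heifers of one group was set beside that of the genes nearest in level. The SD of log2 CPM within groups was 0.60 for SFRP1, against a median of 0.16 among the 1000 genes nearest to it in mean CPM. For FRZB it was 0.73 against 0.56, and for GREM1 0.23 against 0.39. The spread was thus above this median for SFRP1 and FRZB and below it for GREM1. FRZB lay above 1.04% of the genes tested, so most of its 1000 nearest genes had higher levels. Its 0.56 is therefore not a median at its own level, and its spread rests in the IUCL-H on 1 to 8 counts. The low value of GREM1 came from the IUCL-H, with an SD of 0.09 from 43 to 45 counts, whereas that of the IUHT-H was 0.31. The exact Poisson interval of 45 counts was 32.8 to 60.2, far wider than the range of these counts. The SD of the IUCL-H is thus no measure of how alike these heifers are. The spread inside the groups enters the contrast by which the genes were chosen, so these values are a description. The biological coefficient of variation, edgeR's estimate of the relative spread beyond counting error, was 0.31 for SFRP1, 0.46 for FRZB and 0.26 for GREM1, and the trend at the level of each gene was 0.17, 0.40 and 0.36.

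**Figure D2:**
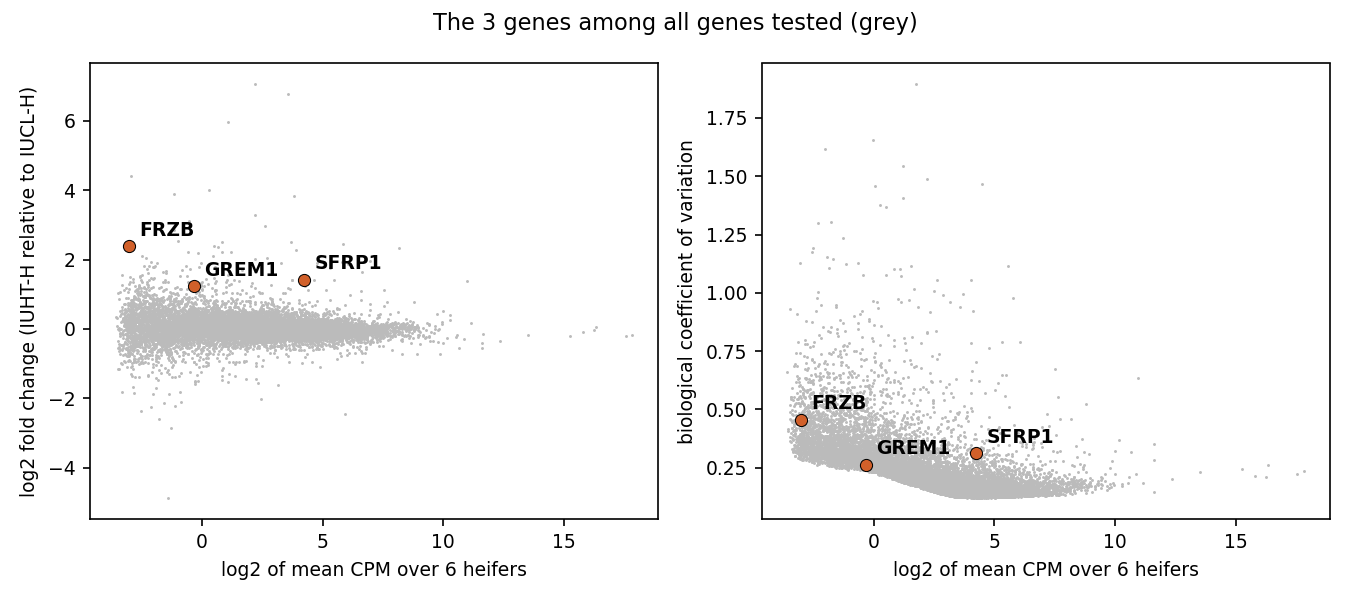
Log2 fold change of IUHT-H relative to IUCL-H (left) and biological coefficient of variation (right) against the log2 of the mean CPM over 6 heifers, for the 14724 genes tested (grey points) and the 3 genes named (orange). SFRP1 lies above most genes of its level in both panels, and GREM1 lies above most genes of its level in the left panel only, with a coefficient of 0.26 where the trend is 0.36.

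The direction of the difference was the same under each of 13 alternatives per gene. These reuse the libraries in which the genes were chosen for this direction, so that its persistence is a description and no further evidence. The log2 fold change ranged from 1.09 to 1.81 for SFRP1, from 1.91 to 3.52 for FRZB and from 1.05 to 1.40 for GREM1. The 1.09 of SFRP1 was from a fit chosen after the data were seen. That fit had the share of the 10 genes with the most counts as a covariate. With library size in place of TMM the values were 1.57, 2.50 and 1.40, while the median over all genes tested moved to 0.13. For SFRP1 the value was highest without IUCL-H 9202 and 1.70 (standard error 0.30) without IUHT-H 9204, the pair of heifers whose levels met.

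**Figure D3:**
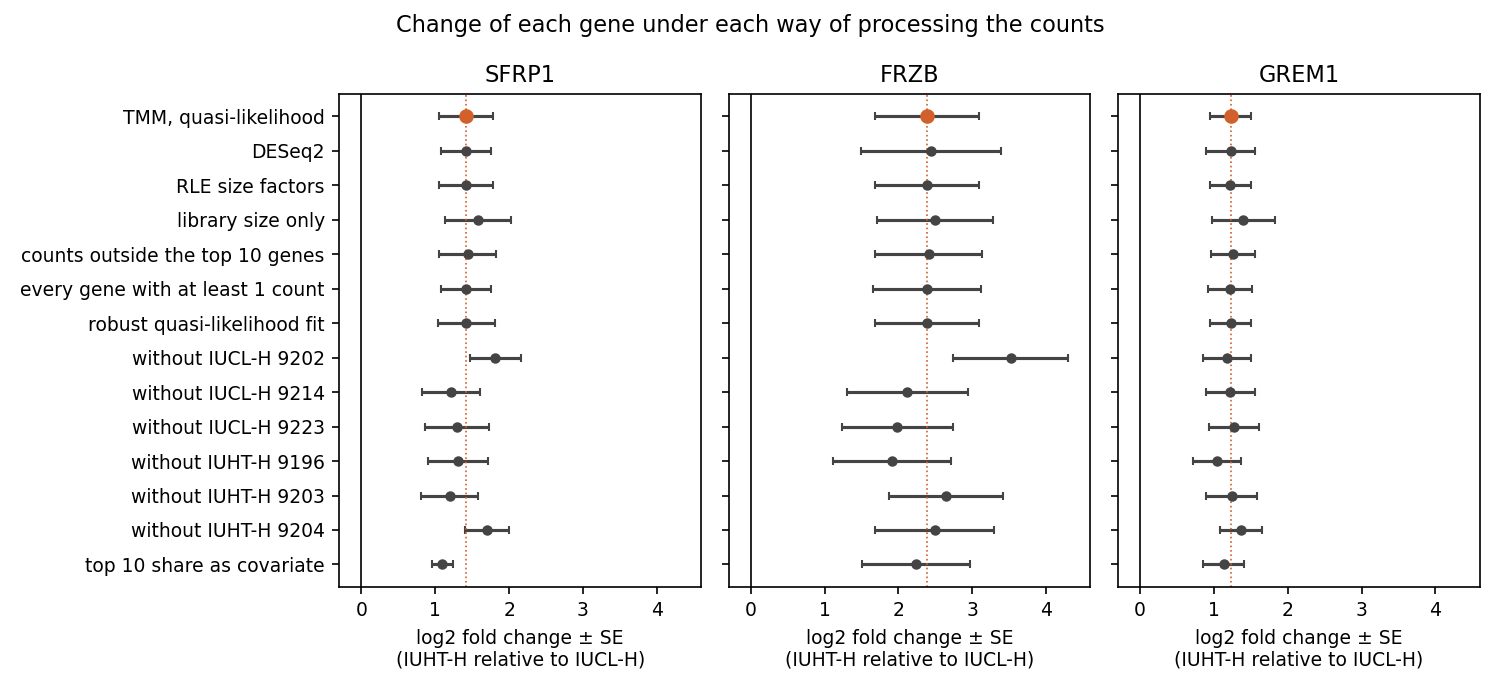
Log2 fold change of IUHT-H relative to IUCL-H (horizontal axes, points, with bars of 1 standard error) for each gene under each way of processing the counts, the value by TMM and quasi-likelihood fit in orange and as a dotted line. All points lie to the right of 0, and the value farthest from the dotted line is that of FRZB without IUCL-H 9202, at 3.52.

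The 3 genes were compared with each other over the heifers by Pearson's r of log2 CPM. Over all 6 heifers r was 0.85 for SFRP1 with FRZB, 0.85 for SFRP1 with GREM1 and 0.85 for FRZB with GREM1, and Spearman's rho was 0.77, 0.77 and 0.71. These values hold the group difference for which the genes were chosen, and they are given without a test. With the mean of each group removed, r was 0.51 for SFRP1 with FRZB, 0.43 for SFRP1 with GREM1 and 0.16 for FRZB with GREM1. None of the 3 was separable from 0 by exact permutation within groups over 6 heifers (two-sided p = 0.39, 0.61 and 0.81, or 0.77, 0.77 and 0.81 after Benjamini-Hochberg adjustment over 6 relations). With 36 arrangements the smallest p this test can give is 0.028. The first of these values rested on single heifers, r of SFRP1 with FRZB being 0.01 without IUCL-H 9202 and 0.89 without IUHT-H 9203. The order of the heifers differed from gene to gene. Among IUHT-H, 9203 was highest in SFRP1, whereas 9196 was highest in FRZB and GREM1. Among IUCL-H, 9202 was highest in SFRP1 and FRZB. In GREM1 the IUCL-H 9202, 9214 and 9223 had 45, 43 and 45 counts, so that no order can be read. There 9202 was lowest by TMM (0.447 CPM) and highest by library size alone (0.491 CPM).

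The count of one gene over that of another in the same heifer needs no scaling. There were 22.7, 32.0 and 17.5 counts of SFRP1 per count of GREM1 in IUHT-H 9196, 9203 and 9204, and 33.7, 14.9 and 16.5 in IUCL-H 9202, 9214 and 9223. The groups overlapped, and heifers 9202 and 9203, from different groups, had the highest ratios. For GREM1 over FRZB the ratios were 4.28, 8.58 and 5.08 in IUHT-H and 5.63, 21.5 and 45.0 in IUCL-H. IUCL-H 9202 lay among the IUHT-H, and the high ratios of the other IUCL-H rest on 2 counts and 1 count of FRZB. For SFRP1 over FRZB they ran from 89.1 to 274.4 in IUHT-H and from 189.8 to 741 in IUCL-H, again with overlap.

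The share of the 10 genes with the most counts was 65.8%, 64.7% and 74.7% in IUHT-H 9196, 9203 and 9204 and 67.6%, 72.5% and 72.1% in IUCL-H 9202, 9214 and 9223. IUHT-H 9204 thus had the highest share and the other IUHT-H the lowest shares. SFRP1 was lower in the heifers with a higher share inside each group. With group means removed, r of SFRP1 with the share was -0.96 over 6 heifers (exact permutation within groups, two-sided p = 0.028). That is the smallest p this test can give, and it became 0.17 after adjustment over 6 relations. The relation did not pass the correction, but a relation alone at the smallest p could not pass, so the correction decides nothing here. An r as low was found in 221 of the 14724 genes tested (1.5%), where the median was -0.03. For FRZB r was -0.39 and for GREM1 -0.58, neither separable from 0 (exact permutation within groups, p = 0.44 and 0.64, adjusted p = 0.77 for both). The value for FRZB was -0.08 without IUCL-H 9202 and -0.82 without IUHT-H 9203.

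Without regard to group, r with the share was -0.78 for SFRP1, -0.46 for FRZB and -0.47 for GREM1, and Spearman's rho was -0.66, -0.26 and -0.43. These values hold the difference between the groups for which the genes were chosen, and like those between the genes they are given without a test. Without heifers 9203 and 9204, the 2 farthest from the median share, r over the 4 that remain was -0.97 for SFRP1, -0.95 for FRZB and -0.68 for GREM1. These 4 are IUHT-H 9196, which has the lowest share among them, and the 3 IUCL-H, so that the values hold the group difference too, and that of FRZB rests on 29, 8, 2 and 1 counts. With the share added to the fit as a covariate, an alternative chosen after the data were seen, the log2 fold change was 1.09 (standard error 0.14) for SFRP1, 2.24 (standard error 0.73) for FRZB and 1.13 (standard error 0.28) for GREM1. These values describe the contrast on which the genes were selected, and the part of the share in it was not tested.

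**Figure D4:**
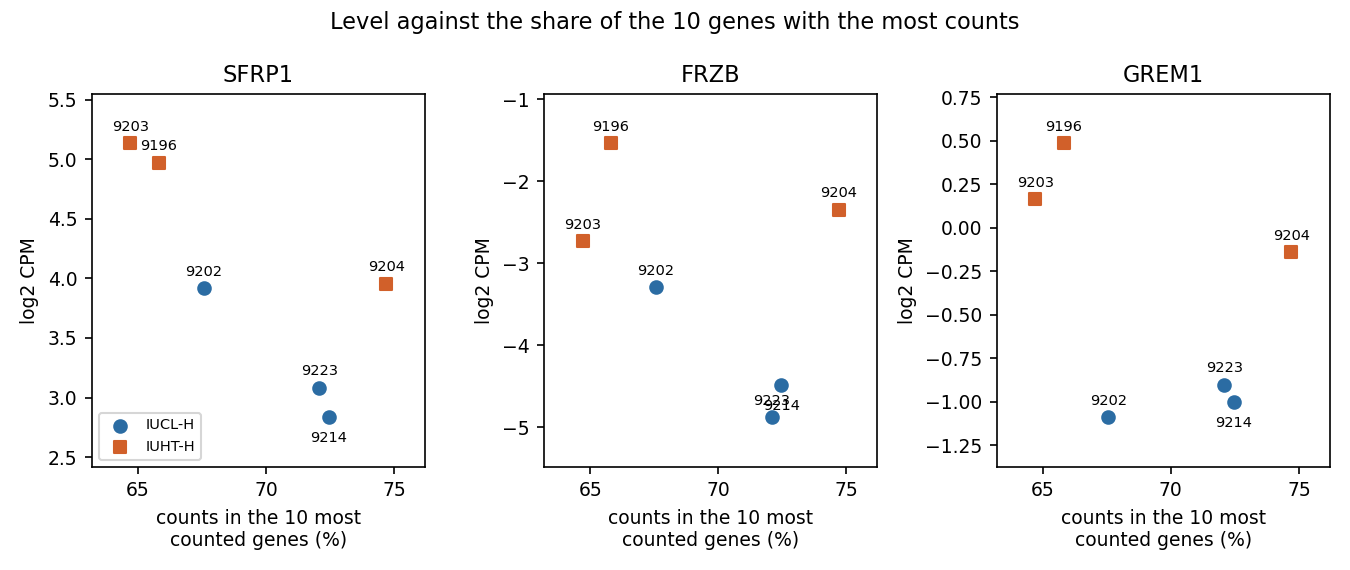
Log2 CPM (vertical axes) against the percent of a heifer's counts in the 10 genes with the most counts (horizontal axes), with IUCL-H as blue circles and IUHT-H as orange squares. Inside each group SFRP1 is lower at a higher share, and IUHT-H 9204, at 74.7%, is the lowest IUHT-H for SFRP1 and GREM1 but not for FRZB.

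Of the other Wnt and BMP genes, LRP5 (ENSBTAG00000005903), a co-receptor of Wnt proteins, could be followed. IUHT-H 9196, 9203 and 9204 had 54.6, 48.8 and 48.4 CPM, and IUCL-H 9202, 9214 and 9223 had 51.0, 67.1 and 65.6 CPM. The groups overlapped through IUCL-H 9202 and IUHT-H 9196. LRP5 averaged 50.6 ± 3.46 CPM in the IUHT-H and 61.2 ± 8.92 CPM in the IUCL-H (SD, 3 heifers each). The log2 fold change of -0.28 (standard error 0.14) did not pass the unadjusted cut-off of 0.01 that the study used (edgeR's quasi-likelihood test, adjusted p = 0.999). At this cut-off 0.285% of the genes tested were called higher and 0.143% called lower in IUHT-H, and 0 had an adjusted p-value below 0.05 in the same test. Unadjusted values under 0.05 were found in 374 genes, and DESeq2 gave 16 genes at an adjusted p-value below 0.05. The counts at the cut-off, 42 higher and 21 lower, depended on single heifers. They were 140 and 106 without IUCL-H 9202, 144 and 81 without IUHT-H 9204, and 17 and 21 without IUCL-H 9214, where more genes were lower than higher. The marker that could be followed was JCHAIN (ENSBTAG00000018531), the joining chain of secreted immunoglobulins and a gene of plasma cells. It had 142.4, 223.4 and 81.0 CPM in IUHT-H 9196, 9203 and 9204 and 37.9, 36.7 and 69.6 CPM in IUCL-H 9202, 9214 and 9223. Like SFRP1, it was highest in IUHT-H 9203 and lowest among IUHT-H in 9204, but among IUCL-H it was highest in 9223 rather than 9202. The IUHT-H mean of JCHAIN was 148.9 ± 71.5 CPM and the IUCL-H mean 48.1 ± 18.7 CPM (SD, 3 heifers each). Its log2 fold change of 1.63 (standard error 0.39) passed the unadjusted cut-off (edgeR's quasi-likelihood test, adjusted p = 0.999), but no longer without IUCL-H 9202 or 9214, where the log2 fold change was 1.49 and 1.47, or with the share of the 10 most counted genes as a covariate, where it was 1.30. With DESeq2 its adjusted p was 0.0075. JCHAIN has a name here because the study picked it on these heifers, so that its call is no independent test. The part of JCHAIN in the difference of the 3 genes was not tested.

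The genes whose log2 CPM was most like that of each of the 3 genes over the 6 heifers were sought among the 14723 other genes tested. The 5 most alike for each gene had r from 0.985 to 0.995 for SFRP1, from 0.979 to 0.988 for FRZB and from 0.973 to 0.991 for GREM1. They are the highest of 14723 values over 6 heifers, and are given as a description without a test. The files give no name for any of these 15 genes. The closest to SFRP1 was ENSBTAG00000023652 (mean 14.7 CPM, log2 fold change 0.43) and the closest to GREM1 was ENSBTAG00000009072 (mean 2.19 CPM, log2 fold change 0.51). The closest to FRZB was ENSBTAG00000021116 (mean 12.7 CPM, log2 fold change 0.10, standard error 0.10). In all 3 the log2 fold change was smaller than that of the gene they resembled. Each of the 3 genes was further down the lists of the others. GREM1 was at rank 533 and FRZB at rank 534 for SFRP1. For FRZB, SFRP1 was at rank 242 and GREM1 at rank 274. For GREM1, SFRP1 was at rank 123 and FRZB at rank 144. Among genes with a name, singled out after their values were seen, NFKBIA, the inhibitor of NF-kappa-B, was at rank 14 for SFRP1 (r = 0.97, mean 27.4 CPM, log2 fold change 0.80). SERPING1, the C1 inhibitor of complement, was at rank 39 (r = 0.96, mean 96.1 CPM, log2 fold change 1.09). Between them lay ZG16B (rank 18, r = 0.97, log2 fold change 2.96) and LOC537017 (rank 27, r = 0.96, log2 fold change 0.85). For FRZB the first was SDCBP2 (rank 8, r = 0.97, mean 0.242 CPM, log2 fold change 1.22), and for GREM1 it was NXPH1 (rank 6, r = 0.97, mean 0.131 CPM, log2 fold change 4.40), followed by the phosphoinositide phosphatase INPP5E (rank 10, r = 0.95, mean 2.45 CPM, log2 fold change 0.82). These genes also carry names because the study selected them on the same comparison, so that their likeness is not independent of the group difference.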

How the data were processed

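Reads of 1 RNA library per heifer (3 IUHT-H, 3 IUCL-H, from separate animals) had been processed by the authors. Per the labels, FastQC, TopHat2 2.0.13, HTSeq and the build UMD3.1 were used, whereas the methods name bosTau7, a different assembly; the counting options are not given in the sources used here. The deposited values are whole-number counts per Ensembl gene, neither normalized nor filtered. As a check for a library deposited more than once, libraries of one group were compared, and each pair differed beyond sampling noise (chi-square per degree of freedom of at least 51.6).

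Here, counts were filtered with filterByExpr (14724 of 24579 genes kept), scaled by TMM and fitted with edgeR's quasi-likelihood test (version 4.0.16, R 4.3.3) without covariates. Adjusted p-values are Benjamini-Hochberg values over all genes tested. Standard errors were obtained from the F statistic of each gene. Log2 CPM used a prior count of 2. Correlations were tested by exact permutation, two-sided. Alternatives were DESeq2 (version 1.42.0), edgeR's exact and likelihood ratio tests, other scalings and filters, a robust fit and leaving out each heifer. Genes named were the 3 genes, the genes of fixed lists that could be matched and the 5 genes most alike to each, apart from the named genes chosen later as stated. The genes and lists were chosen with earlier results of these data known. Identifiers were paired with names for 375 genes, as the study gives them. Poisson intervals and the limit of 3 counts cover counting error only.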

Additional observations from a re-analysis of the deposited data

How the results depend on the processing

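The log2 fold changes of SFRP1, FRZB and GREM1 kept their direction under each alternative run and moved by less than the spread between heifers, apart from FRZB. The genes were chosen for this direction in the same libraries, so that its persistence is no further evidence. Leaving out each heifer in turn took FRZB from 1.91 to 3.52, the latter without IUCL-H 9202. The call of LRP5 was the same under all 15 alternatives, and that of JCHAIN ranged from 0 to 1 genes called when each heifer was left out, being lost without IUCL-H 9202 or 9214. Within groups, r of FRZB with GREM1 was -0.26 by Spearman's coefficient and between -0.68 and 0.58 when a heifer was left out, negative without IUHT-H 9196. In the same way r of SFRP1 with GREM1 ranged from -0.47 to 0.79 and r of GREM1 with the share of the 10 genes with the most counts from -0.80 to 0.57, both changing sign without IUHT-H 9204. For SFRP1 with FRZB the range was 0.01 to 0.89 and for FRZB with the share -0.82 to -0.08. The scaling mattered too. By library size alone, r was 0.82 for SFRP1 with GREM1, 0.55 for FRZB with GREM1 and -0.88 for GREM1 with the share. With CPM not put on a log scale, r was 0.69 for FRZB with GREM1 and 0.22 for SFRP1 with FRZB. None of these values passed adjustment (exact permutation within groups, lowest adjusted p = 0.22). For SFRP1 r with the share stayed between -0.99 and -0.94 under each alternative run, none of which passed adjustment. With a heifer left out the 12 arrangements cannot give a p below 0.083, so that these alternatives could not pass. With all heifers kept, SFRP1 was at the smallest p of 36 arrangements (exact permutation within groups, 0.028). Being alone at it, the relation could not pass there either. Genes at the unadjusted cut-off numbered 42 higher and 21 lower by quasi-likelihood, 78 and 46 by DESeq2, 71 and 37 by the exact test, 75 and 37 by the likelihood ratio test and 36 and 8 by library size. With each heifer left out they ranged from 17 to 144 higher and from 20 to 106 lower. Scaling to the summed fibroblast or basal markers was not run, since these genes could not be matched, and FRZB and GREM1 were removed by the filter of more than 1 CPM in at least 3 heifers. No paired analysis was possible because the heifers of the groups share no number. Depth limits FRZB, with at most 8 counts in any IUCL-H.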
